A study of Mus musculus with 6 samples.

Results

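The 33 genes described here are mouse genes that interferon-gamma is known to induce and that serve cell-autonomous defence and antigen display by major histocompatibility complex (MHC) class I. They are 7 immunity-related GTPases (Irgm1, Irgm2, Igtp, Iigp1, Ifi47, Tgtp1 and Tgtp2), 8 guanylate-binding proteins (Gbp2 to Gbp9), 5 subunits of the immunoproteasome and its activator (Psmb8, Psmb9, Psmb10, Psme1 and Psme2), 4 genes of peptide transport and loading (Tap1, Tap2, Tapbp and Erap1), 7 class I chains (B2m, H2-K1, H2-D1, H2-Q4, H2-Q7, H2-T22 and H2-T23) and the 2 regulators Irf1 and Nlrc5. They were taken by symbol, and all 33 were found among the 31053 features of the count matrices. Single cells of the pancreatic lymph node, which drains the pancreas, were profiled on the 10x droplet platform in 6 mice. All 6 carried a floxed gene. In 3 mice a Cre recombinase transgene under the CD4 promoter was present (Cre-positive) and in 3 it was not (Cre-negative). CD4-Cre acts in T cells, CD8 T cells included, because developing T cells pass a stage that expresses Cd4. B cells and myeloid cells are not the intended targets of this Cre, but recombination is not reported here for any class. The labels name separate mice but give no strain, sex or age.

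As background, interferon-gamma binds its receptor and signals through the kinases JAK1 and JAK2. The promoters of its target genes hold gamma-activated sites (GAS) and interferon-stimulated response elements (ISRE), the latter bound by IRF1 and other IRF factors. The GTPases assemble on the vacuoles of intracellular pathogens. The immunoproteasome cuts proteins into peptides that TAP carries into the endoplasmic reticulum, where tapasin helps to load them on class I heavy chains paired with beta-2-microglobulin. NLRC5 is the class I transactivator. Resting lymphocytes hold a basal level of the class I genes, and type I interferons induce most of the same genes.

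The 6 libraries held 8209 to 10936 cell barcodes and 6834 to 9529 cells each after limits on quality and removal of predicted doublets, 51777 in all. Median depth was 4239 to 5596 unique molecular identifiers (UMIs) a cell. Any pair of libraries shared 16 to 39 barcodes, at most 0.393%. Cells were assigned to classes by UMIs of marker genes, none of them among the 33, and UMIs were summed per mouse and class. The gates took 69.97% to 75.69% of the cells of each mouse. They gave 13288 conventional CD4 T cells (1971 to 2687 per mouse), 978 Foxp3+ regulatory T cells (129 to 185), 10049 CD8 T cells (1318 to 2196), 12387 B cells (1413 to 2781), 813 dendritic cells (71 to 219) and 467 monocytes and macrophages (61 to 92). Natural killer cells (38 in all) and plasmacytoid dendritic cells (82 in all) were too few per mouse for a test. Markers that the gates did not use followed them in part. Trac averaged 903 CPM (UMIs of a gene per 1000000 UMIs) in conventional CD4 T cells and 5.13 in B cells, Fcmr 705 in B cells against at most 5.74 in the other classes, Ctla4 638 in regulatory T cells against 80.7 in conventional CD4 T cells, Nkg7 576 in CD8 T cells, Ccr7 940 in dendritic cells and Apoe 4882 in monocytes and macrophages. Others did not set 1 class apart: Cd74 and H2-Aa were high in B cells, dendritic cells and monocytes alike, Itgax was lower in dendritic cells (41.3) than in monocytes and macrophages (78.6), and Ccl5, listed for CD8 T cells (190), reached 13339 in dendritic cells. A regulatory T cell in which no Foxp3 UMI was captured falls into the conventional gate. The dendritic gate summed UMIs of Fscn1, Ccl22, Zbtb46, Xcr1, Clec9a and Cd209a, and states of dendritic cells were not told apart. Against the T and B cell classes, Ccl5, Fscn1 and Cd63 led by fold in the gated dendritic cells. Levels given for dendritic cells are those of this mix.

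Most of the genes lie in 5 clusters of the mm10 genome, by GENCODE M21 annotation. The 6 immunity-related GTPases other than Iigp1 are on chromosome 11, where Tgtp1 (chr11:48985327-48994172), Tgtp2 (chr11:49057194-49064206) and Ifi47 (chr11:49076587-49096974) are near neighbours. Gbp5, Gbp7, Gbp3 and Gbp2 follow each other on chromosome 3 between 142493978 and 142638008, and Gbp4, Gbp6, Gbp8 and Gbp9 lie on chromosome 5. The heavy chains of class I, Psmb8, Psmb9, Tap1, Tap2 and Tapbp are all in the MHC on chromosome 17. Igtp and Irgm2 overlap on the same strand, as do Gbp4, Gbp8 and Gbp9, and Psmb9 and Tap1 overlap head to head. Tgtp1 and Tgtp2 are near-identical copies, and class I heavy chains such as H2-Q4 and H2-Q7 are closely related, so that the split of reads between them is uncertain. The strand setting of the counting is not given in the sources used here.

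RefSeq promoter windows, from 250 bases before to 50 after a start on GRCm38.p6, were matched for 26 of the 33 genes. An ISRE core (GAAANNGAAA, either strand) was found in 14 of the 26 (53.85%), against 3.993% of 27025 genes with a window. A GAS (TTCNNNGAA, the same on both strands) was found in 8 (30.77%) against 9.554%, and both motifs in 6 (23.08%) against 0.6142%. These genes are textbook targets of the factors, and a match is a description of the letters only. The ISRE core was present in 5 of 6 immunity-related GTPases with a window and in 4 of 4 guanylate-binding proteins, but in 1 of 5 immunoproteasome genes (Psme1), 1 of 3 loading genes (Erap1) and 3 of 7 class I chains (B2m, H2-T22 and H2-T23). H2-K1, H2-D1, H2-Q4 and H2-Q7 held no exact match to either motif in the window. Only exact matches were counted, so a site that departs from these letters was missed. A window without a match can therefore still hold such a site. In Igtp, Irgm2, Tgtp1 and Tgtp2 the GAS starts 11 bases before the ISRE core, an arrangement found in 5 of the 32851 windows, the fifth being that of Gm12185. Stretches of 6 promoters are shown for genes named in the comparisons of cell classes or of cells gated on interferon-induced RNAs. Not all of them passed in those gates. Letters are 5′ to 3′ on the strand of the gene, with the motifs in capitals. They lie at chr11:58199501-58199541 on the plus strand for Igtp, chr11:48992304-48992344 on the minus strand for Tgtp1, chr3:142620594-142620623 on the plus strand for Gbp2, chr2:122147538-122147567 on the plus strand for B2m, chr17:36042914-36042943 on the minus strand for H2-T22 and chr11:53769914-53769942 on the plus strand for Irf1, each upstream of the RefSeq start. Igtp and Tgtp1 show the GAS followed by the ISRE core, Gbp2 and H2-T22 an ISRE core on the opposite strand, B2m an ISRE core alone and Irf1 a GAS alone.
Igtp: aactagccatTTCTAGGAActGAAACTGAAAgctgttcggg
Tgtp1: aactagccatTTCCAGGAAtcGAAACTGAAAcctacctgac
Gbp2: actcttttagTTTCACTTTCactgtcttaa
B2m: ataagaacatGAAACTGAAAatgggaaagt
H2-T22: attggcttagTTTCACTTTCgaatccccaa
Irf1: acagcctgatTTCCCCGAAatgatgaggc

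The 15 GTPase genes were expressed at a higher summed level in T cells than in B cells, while dendritic cells held the highest level of the class I machinery. Levels are given in CPM, the UMIs of a gene over all UMIs of the sum. The 15 GTPases together made up 467 CPM in conventional CD4 T cells (425 to 543 over the 6 mice), 678 in regulatory T cells (529 to 791), 548 in CD8 T cells (499 to 638) and 148 in B cells (127 to 185). They made up 592 in dendritic cells (465 to 722) and 528 in monocytes and macrophages (309 to 963, the highest in Cre-negative 2). B cells thus lay below every other class shown in every mouse. Plasmacytoid dendritic cells, left out for their 10 to 18 cells per mouse, gave 166 (83.4 to 244) and overlapped with B cells. All 33 genes together reached 21843 CPM in dendritic cells (20449 to 23015, or 2.18% of their UMIs), against 7653 in conventional CD4 T cells, 8367 in CD8 T cells, 9601 in regulatory T cells, 5030 in B cells and 10072 in monocytes and macrophages. The map of levels by gene, class and mouse shows how each role contributes. In sums of this kind, fewer cells with the RNA and less RNA per cell cannot be told apart.

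**Figure D1:**
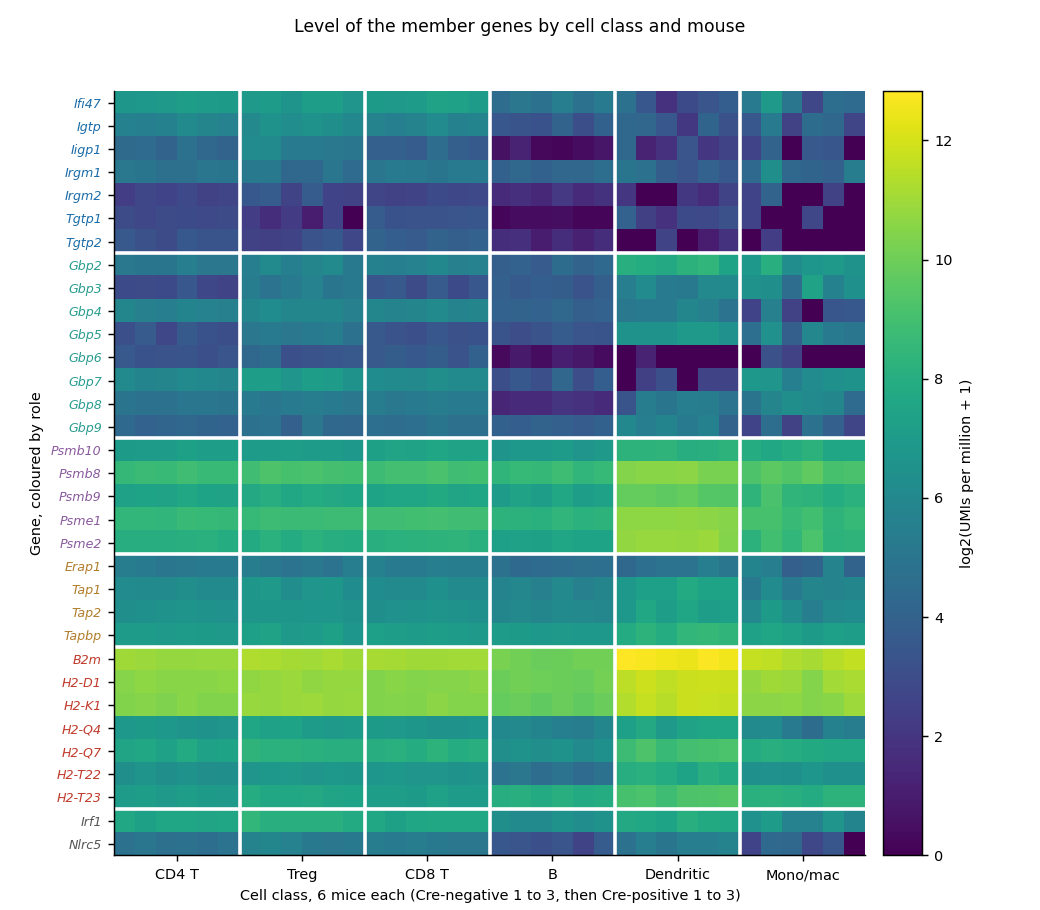
Levels of the 33 genes, as log2(CPM + 1), in each of 6 mice (columns) within 6 classes of cells, with genes in rows grouped by role. Brighter colours stand for higher levels. The immunity-related GTPase rows are dark in both B cells and dendritic cells, and the immunoproteasome and class I rows are brightest in dendritic cells.

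B cells were compared with conventional CD4 T cells of the same mice, and 15 of the 33 genes were at least 2-fold lower in B cells, with none 2-fold higher. Of the 12225 features tested, 12.9% were called lower and 13.6% higher by the same rule, an adjusted p under 0.05 in edgeR's quasi-likelihood test with the mouse as a block and a fold of at least 2. By adjusted p alone, 30 of the 33 were lower and 2 higher, where 36.6% and 37% of all features were. The median log2 difference was -0.80 over the 33 genes and 0.01 over all features. The 2 genes higher in B cells were H2-T23, the heavy chain of the nonclassical molecule Qa-1 (log2 difference 0.92 ± 0.03 SE), and Gbp3 (0.88 ± 0.12), which reached 1.01 without Cre-positive 1.

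The B cell difference had different medians by role, with a wide spread within roles. It ran from -3.87 (Gbp6) to 0.88 (Gbp3) among the guanylate-binding proteins and from -1.67 (H2-T22) to 0.92 (H2-T23) among the class I chains. All 7 immunity-related GTPases were lower (median log2 difference -2.23), 6 of them past 2-fold. Iigp1, a GTPase that gathers on pathogen vacuoles, fell from a median of 19.96 CPM (15.7 to 26.6) in conventional CD4 T cells to 0.419 CPM (0.159 to 1.30) in B cells, or 36.5-fold, on few UMIs per mouse in B cells. Igtp, also called Irgm3, a regulator of the other GTPases, had 45.2, 49.9 and 70.4 CPM as lowest, median and highest level in CD4 T cells and 7.60, 9.62 and 16.03 in B cells. The highest B cell value of Igtp was well under the lowest of the CD4 T cells (log2 difference -2.23 ± 0.12, adjusted p 7.8e-07).

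Of the 8 guanylate-binding proteins 6 were lower in B cells, 5 of them past 2-fold, and they differed widely among themselves. Gbp8 fell 13.8-fold, from a median of 29.6 CPM to 1.97. Gbp2, which binds pathogen vacuoles and bacteria, went from 30.3, 32.9 and 44.3 CPM in CD4 T cells to 11.7, 15.7 and 21.8 in B cells (log2 difference -1.04 ± 0.07, adjusted p 6.2e-11). The groups did not overlap, and without Cre-negative 3 the difference was just under 2-fold. Gbp5, which promotes inflammasome assembly, was at 7.99 CPM in CD4 T cells and 9.05 in B cells as medians, with ranges that overlapped (0.11 ± 0.13, adjusted p 0.44).

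The antigen-processing genes were lower by less. The catalytic immunoproteasome subunit Psmb8 had a median of 408 CPM (368 to 470) in CD4 T cells and 380 (341 to 464) in B cells, and although the ranges overlapped, the within-mouse difference of -0.10 ± 0.03 passed. The peptide transporter subunit Tap1 went from 70.1 CPM (68.0 to 79.3) to 53.7 (46.5 to 64.3), without overlap. B2m, the shared light chain, went from 1865 CPM (1766 to 2019) to 1100 (938 to 1222), and H2-K1, a classical heavy chain, from 1367 (1306 to 1495.5) to 906 (818 to 962), both without overlap. The nonclassical chain H2-T22 was 3.18-fold lower. Irf1 stood at 156, 186 and 205 CPM in CD4 T cells against 66.2, 79.8 and 95.2 in B cells, and Nlrc5 at 24.01, 27.5 and 31.8 against 5.22, 9.41 and 12.3. Both regulators were therefore lower in all B cell sums, 2.3-fold and 3-fold. The constitutive proteasome subunits that the immunoproteasome replaces, Psmb5, Psmb6 and Psmb7, gave log2 differences of -0.01, -0.07 and 0.02, none of which passed.

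Cells with a UMI showed the same order after each cell was thinned to 2000 UMIs. Igtp was then seen in 7.94% to 13.3% of conventional CD4 T cells and 0.877% to 3.29% of B cells, and Gbp2 in 4.41% to 6.83% and 1.87% to 3.11%. Before thinning, the medians over mice were 20.03% and 4.44% for Igtp, and 12.3% and 6.02% for Gbp2. Thinning left out 122 CD4 T cells and 124 B cells.

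**Figure D2:**
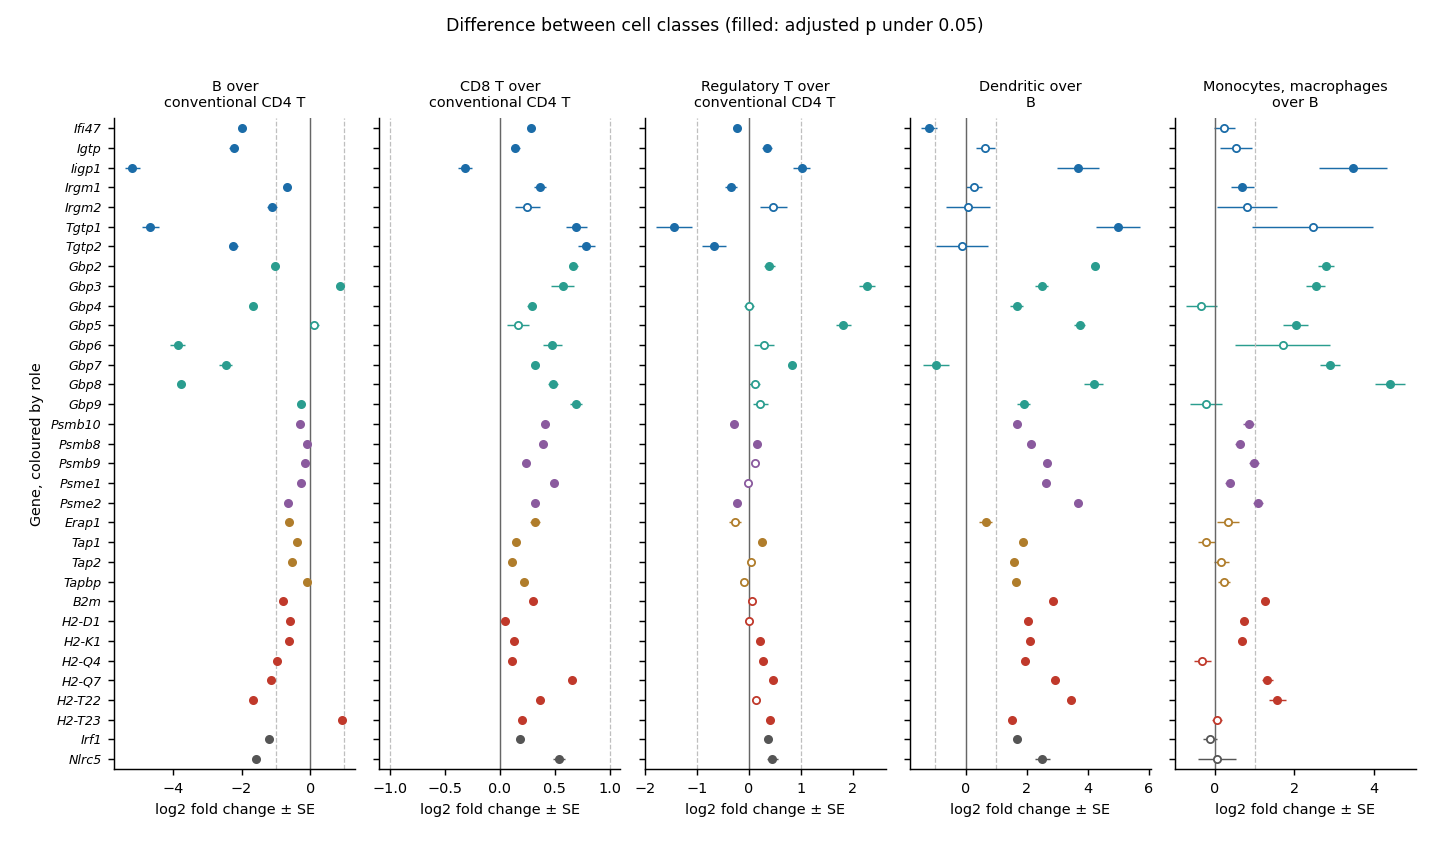
Log2 differences between classes (points, ± SE) for each of the 33 genes in 5 comparisons within the same mice, with filled points for an adjusted p under 0.05 and dashed lines at 2-fold. B cells lie to the left of conventional CD4 T cells for all GTPases but Gbp3 and Gbp5, and dendritic cells to the right of B cells for most other genes.

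CD8 T cells differed from conventional CD4 T cells by small steps, mostly upward. None of the 33 genes reached 2-fold (3.01% of 11573 features were called higher by that rule). By adjusted p alone 30 were higher, where 23.3% of features were, and 1 was lower, where 22.4% were. The median log2 difference was 0.32 for the 33 genes and 0.01 for all features. The guanylate-binding proteins had the highest median of the roles with more than a pair of genes (0.48), and all 5 immunoproteasome and activator genes, all 4 loading genes and all 7 class I chains passed. Gbp2 had 44.9, 49.5 and 61.6 CPM in CD8 T cells as lowest, median and highest level, all above the CD4 range (0.67 ± 0.04). B2m had 2024, 2139 and 2309 CPM (0.31 ± 0.01) and Psmb8 447, 501 and 562 (0.39 ± 0.02). Nlrc5 had 33.2, 36.2 and 41.4 CPM (0.54 ± 0.05). Tap1 (67.7, 70.1 and 86.9 CPM), H2-K1 (1328, 1381 and 1538) and Igtp (46.2, 52.4 and 72.0) overlapped the CD4 levels and differed by 0.14, 0.13 and 0.14. Irf1, at 158, 199 and 209 CPM, differed by 0.18. Iigp1 was the gene that was lower (-0.32 ± 0.07). These folds use TMM scaling, which lifts CD8 T cells by 0.12 on the log2 scale: without it 29 of 33 were higher, and H2-D1 (0.05), H2-Q4 (0.11) and Tap2 (0.11) turned to below 0.

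Regulatory T cells held more Gbp3, Gbp5 and Iigp1 and less Tgtp1. Against conventional CD4 T cells, 3 of the 33 genes were at least 2-fold higher, where 7.35% of 11333 features were, and 1 was at least 2-fold lower, where 2.49% were. Gbp3 was at 41.5, 29.1 and 38.1 CPM in the regulatory T cells of the Cre-negative mice and 49.97, 30.7 and 35.3 in those of the Cre-positive mice. In conventional CD4 T cells it was at 6.497, 6.65 and 6.30, and 10.1, 5.85 and 5.09. Every regulatory T cell value was above every conventional one, by 4.83-fold in the fit (log2 difference 2.27 ± 0.15). Gbp5 was 3.52-fold higher (1.82 ± 0.15) and Iigp1 2.03-fold (1.02 ± 0.17). Iigp1 stayed past the adjusted p but slipped under 2-fold, to 0.86, without Cre-negative 1 and, to 0.92, without Cre-negative 2. Tgtp1 was lower (-1.45 ± 0.35), on 0 to 4.97 CPM in regulatory T cells.

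By adjusted p alone 14 of the 33 were higher in regulatory T cells, where 16% of features were, and 6 lower, where 17.1% were. The lower genes were Tgtp1, Tgtp2, Irgm1 and Ifi47 among the GTPases and Psmb10 and Psme2 of the proteasome, while Gbp7 rose by 0.84 ± 0.08. Irf1 had 227, 271 and 357 CPM (0.37 ± 0.06) and Nlrc5 33.2, 43.4 and 58.1 CPM (0.46 ± 0.11) as lowest, median and highest level. Igtp, at 62.3, 79.9 and 93.8 CPM, and Gbp2, at 35.3, 51.3 and 67.2, differed by 0.35 and 0.40. H2-K1, at 1776, 1847 and 1965 CPM, Psmb8, at 476, 533 and 610, and Tap1, at 74.4, 104 and 122, rose by 0.21, 0.16 and 0.25, and B2m (2053, 2287 and 2510 CPM) gave 0.07 with an adjusted p of 0.13. Levels here are plain, and without TMM scaling every log2 difference of regulatory T cells would be 0.21 higher. No gene that passed changed sign.

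Dendritic cells exceeded B cells in nearly all roles except the immunity-related GTPases. Of 32 genes tested (Gbp6 was too low), 25 were at least 2-fold higher and 1 was lower, where 19.5% and 22.1% of 11509 features were called. By adjusted p alone 2 were lower, where 33.5% of features were. The median log2 difference was 1.98 over the 32 genes and -0.24 over all features. All 7 class I chains, all 5 immunoproteasome and activator genes and both regulators were past 2-fold, as were 6 of 7 guanylate-binding proteins and 3 of 4 loading genes. Gbp2 was at 262, 247 and 214 CPM in the Cre-negative mice and 299, 343 and 175 in the Cre-positive mice, against 13.8, 15.6, 11.7, 21.8, 15.8 and 20.2 in their B cells. That is 18.9-fold higher (4.24 ± 0.15), with no overlap.

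Psme2, a subunit of the proteasome activator PA28, was at 1747, 1855 and 1820 CPM in Cre-negative and 1756, 1891 and 1409 in Cre-positive dendritic cells. Its B cell levels lay between 149 and 189 CPM, 12.7-fold lower. B2m reached 5564, 6345 and 7278 CPM as lowest, median and highest level, 7.21-fold above B cells, and H2-K1 2622, 3312 and 3551. Psmb8 reached 1204, 1435 and 1575 CPM, 4.4-fold above B cells, where constitutive Psmb5 (log2 difference 0.75), Psmb6 (1.09) and Psmb7 (1.85) were also higher. Tap1 was at 114, 162 and 229 CPM (1.88 ± 0.14), Nlrc5 at 27.7, 44.1 and 52.9 (2.51 ± 0.24) and Irf1 at 173, 210 and 264 (1.69 ± 0.13). None of these ranges overlapped with B cells.

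The immunity-related GTPases were the exception, with a median of 0.26, although Iigp1 and Tgtp1 (4.99, on 1 to 6 UMIs per mouse) were called higher. Ifi47 was lower in dendritic cells (-1.22 ± 0.27), and Igtp, Irgm1, Irgm2 and Tgtp2 did not pass (0.64, 0.26, 0.07 and -0.12). Igtp was at 3.18, 13.4 and 18.5 CPM, overlapping with B cells. Gbp7, which acts in the oxidative defence of phagocytes, was lower by adjusted p (-0.97 ± 0.43, adjusted p 0.043) and stood at 0 to 7.74 CPM. It was past 2-fold without Cre-negative 3 (-1.22) or Cre-positive 2 (-1.27). Dendritic cells were shallower than the T and B cells of these libraries (median 1622 to 3470 UMIs a cell, with 314320 to 971415 UMIs per sum), and thinning left out 374 of them. Gbp2 was seen in 29.4% to 46.3% of thinned dendritic cells, far above the B cell share, and in a median of 43.6% before thinning. Without TMM scaling all these log2 differences would be 0.28 lower, which turns Irgm1 and Irgm2 to below 0.

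Monocytes and macrophages held more of 5 guanylate-binding proteins than B cells, while no loading gene passed. Against B cells, 10 of 32 genes tested were at least 2-fold higher (16.2% of 11404 features), with none 2-fold lower, and 17 were higher by adjusted p alone, where 20.9% of features were. Gbp8 (log2 difference 4.41 ± 0.37), Gbp7 (2.90 ± 0.24), Gbp2 (2.81 ± 0.20), Gbp3 (2.54) and Gbp5 (2.03) rose, beside Iigp1 (3.48, on 0 to 4 UMIs per mouse). Gbp7 was at 45.5, 91.7 and 115 CPM, above every B cell value. Among the class I chains H2-T22 (1.57), H2-Q7 (1.32) and B2m (1.26) were past 2-fold, as was Psme2 (1.08). B2m was at 2254, 2980 and 3342 CPM, H2-K1 at 1412, 1550 and 1976 and Psmb8 at 546, 623 and 825, each above the B cell range.

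None of the 4 loading genes passed in monocytes and macrophages, and neither did Irf1 (-0.13 ± 0.18) or Nlrc5 (0.05). Tap1 was at 35.1, 54.3 and 71.6 CPM, Irf1 at 49.8, 71.9 and 131, Nlrc5 at 0, 7.60 and 19.9, Igtp at 4.55, 14.7 and 39.8 and Gbp2 at 77.3, 110 and 275. All but Gbp2 overlapped with B cells. The high values of Gbp7 and of Ifi47 (up to 119 CPM) in single mice came from sums of 180567 to 251327 UMIs, with medians of 1221 to 1624 UMIs a cell. Whether monocytes and dendritic cells differ in Gbp7 was not tested. Without Cre-negative 2, Gbp4 was lower in monocytes and macrophages (-1.51, adjusted p 0.019), and Psme2 was just under 2-fold without Cre-negative 2 or Cre-positive 1. Without TMM scaling the log2 differences would be 0.16 higher.

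Cells that passed a gate on other interferon-induced RNAs held more RNA of several GTPases, while the classical class I genes did not pass in that gate. Within a class, cells with at least 3 UMIs over at least 2 of Ifit1, Ifit3, Isg15, Usp18 and Rsad2 were set against cells with 0 UMIs of these 5 genes. Type I interferons induce the 5 genes strongly, and none is among the 33. The gate took 103 conventional CD4 T cells (8 to 22 per mouse, 0.342% to 1.12%) and 104 CD8 T cells (11 to 24, 0.661% to 1.52%). Depth was similar or higher in gated CD4 T cells (medians 4628 to 7115 UMIs against 4365 to 5729) and overlapped in CD8 T cells (4594 to 7675 against 5258 to 7054).

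In conventional CD4 T cells 7 of the 33 genes were at least 2-fold higher in gated cells, where 0.752% of 10244 features were, and 10 were higher by adjusted p, where 0.869% were. Igtp was at 213, 124 and 213 CPM in gated cells of Cre-negative mice and 119, 179 and 160 in those of Cre-positive mice. The cells without the 5 RNAs had 44.0, 41.0 and 46.2, and 66.7, 52.4 and 49.5, so that all gated values were higher (1.57 ± 0.21, adjusted p 2.0e-11). Gbp2 (1.39 ± 0.27), Gbp9 (1.35), Gbp7 (1.30), Irgm1 (1.17), Gbp4 (1.09) and Nlrc5 (1.06) were the others past 2-fold. H2-T22 (0.83), H2-T23 (0.81) and Ifi47 (0.80) passed below 2-fold. Gbp2 had a lowest, median and highest level of 53.0, 91.0 and 124 CPM in gated cells against 27.1, 28.7 and 38.0. Nlrc5 was close to the threshold (adjusted p 0.044) and lost it when any single mouse among 5 of the 6 was left out. With at most 5% mitochondrial UMIs per cell Nlrc5 (adjusted p 0.058) and Irgm1 (1.08, adjusted p 0.080) did not pass, nor did Irgm1 in DESeq2 (1.25, adjusted p 0.077). With low-count features kept, Gbp9 (adjusted p 0.054) and Nlrc5 (adjusted p 0.080) did not pass. Gbp9 also lost the threshold without Cre-negative 2 or either of Cre-positive 1 and 2, Irgm1 without Cre-negative 1 or Cre-positive 2 and Gbp4 its fold without Cre-positive 1, so that the count at 2-fold fell to 4 without Cre-positive 1 or Cre-positive 2.

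In CD8 T cells 4 of the 33 were at least 2-fold higher (0.528% of 10221 features) and 10 by adjusted p (0.685%). They were Gbp6 (2.04 ± 0.38), Gbp9 (1.32 ± 0.28), Igtp (1.26 ± 0.20) and Irgm1 (1.18 ± 0.25) past 2-fold, then Gbp2 (0.98), Gbp4 (0.94), Gbp7 (0.80), H2-T23 (0.67), H2-T22 (0.66) and Ifi47 (0.56). Igtp was at 108, 100 and 72.6 CPM in Cre-negative and 293, 82.9 and 151 in Cre-positive gated cells, against 44.9 to 64.7 in the others. Cre-positive 1 was far above the rest, and without it the log2 difference was 0.95. Irgm1 did not pass without Cre-positive 3 (0.84, adjusted p 0.16). With at most 5% mitochondrial UMIs Gbp9 (1.02, adjusted p 0.18), Gbp2, Gbp7 and Ifi47 did not pass, and Ifi47 did not pass in DESeq2 either (adjusted p 0.15).

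By role, the GTPases had the larger medians in both T cell classes. Median log2 differences were 1.17 in CD4 and 1.08 in CD8 T cells for the immunity-related GTPases and 1.19 and 0.96 for the guanylate-binding proteins. They were 0.16 and 0.14 for the immunoproteasome, 0.38 and 0.29 for the loading genes and 0.17 and 0.09 for the class I chains. H2-K1 was at 1250, 1585 and 1824 CPM in gated CD4 T cells and 1292, 1352 and 1472 in the others, with a log2 difference of 0.04. H2-D1 gave 0.02 and B2m 0.17 there, and 0.01 and 0.02 in CD8 T cells, and none passed. Psmb8, at 372, 475 and 570 CPM against 356, 392.5 and 458, gave 0.13. Irf1 gave 0.41 (adjusted p 0.17) and 0.47 (adjusted p 0.072). The median of all features was -0.17 in CD4 and -0.13 in CD8 T cells, and without TMM scaling each difference would be 0.18 and 0.15 higher.

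Several listed genes of the interferon pathways outside the 33 were also higher in gated cells. The lists hold signalling genes and regulators, but also other interferon-gamma targets, type I interferon targets, class I genes, loading partners and proteasome subunits. Leaving out the genes that define the gate, 13 of 49 listed pathway genes tested in CD4 T cells were higher by adjusted p, where 0.869% of all features were, and 9 of 46 in CD8 T cells, where 0.685% were. None was lower. In the order CD4 and CD8, the regulator Irf7 rose by 2.33 and 2.07, the nucleic acid sensor Zbp1 by 1.43 and 1.85 and Parp14 by 1.31 and 1.17. Ifng, the ligand, was higher in gated CD8 T cells (2.12 ± 0.48, adjusted p 0.0025). In gated CD4 T cells it gave -2.36 with an adjusted p of 0.42. A broader gate with at least 2 UMIs was chosen after the data were seen. It took 59 to 87 CD4 and 52 to 94 CD8 T cells per mouse. By adjusted p 22 and 19 of the 33 genes were higher there, where 4.72% and 1.62% of features were. Of the 5 immunoproteasome and activator genes 4 passed in each class (medians 0.37 and 0.27). Of the 7 class I chains 3 and 2 passed (medians 0.20 and 0.12). The GTPase families had medians of 0.74 to 0.94. B cells had too few cells for the first gate, and the broader one gave 6 to 18 B cells per mouse. There 6 of 31 genes were at least 2-fold higher (3.64% of 10512 features) and 8 by adjusted p (3.81%). Gbp2 reached 403 CPM in a single mouse, with a median of 36.5, so these B cell counts rest on few cells, and the count at 2-fold was 2 without Cre-positive 1 and 3 without Cre-negative 2.

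**Figure D3:**
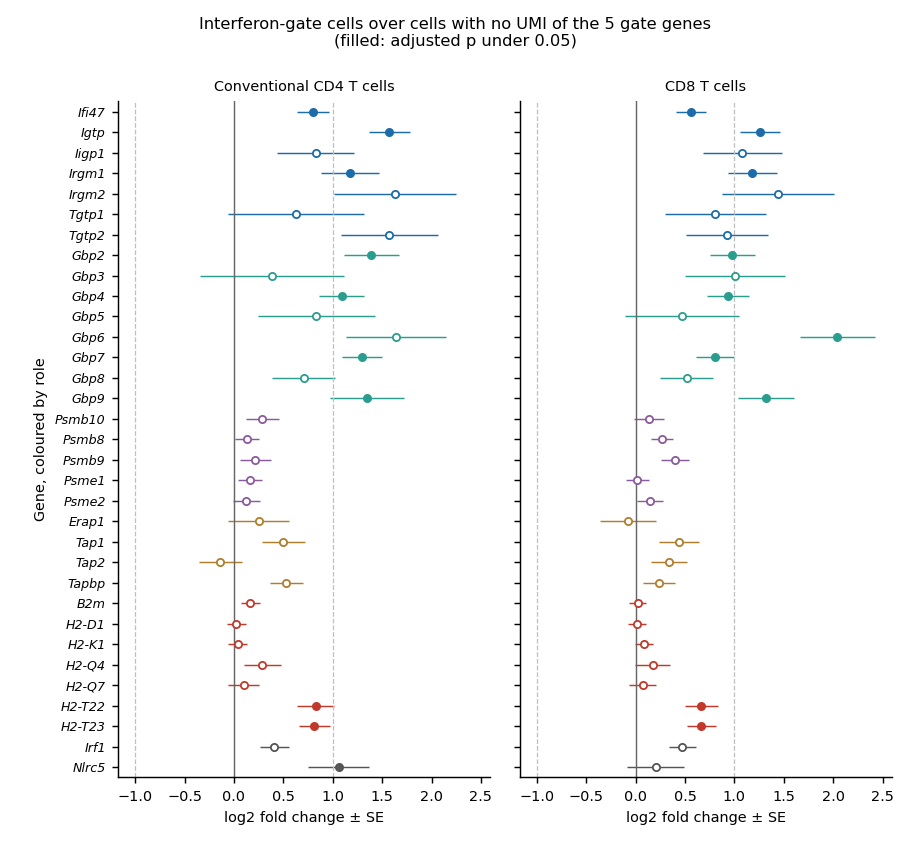
Log2 differences (points, ± SE) for the 33 genes between T cells with RNAs of Ifit1, Ifit3, Isg15, Usp18 and Rsad2 and T cells with none, in conventional CD4 and CD8 T cells, with filled points for an adjusted p under 0.05. The GTPases lie to the right of 0, by 1.57 and 1.26 for Igtp, and H2-K1, H2-D1 and B2m lie near 0.

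The Cre-positive and Cre-negative mice were compared within each class, and none of the 33 genes passed in any of the 6 classes tested. Few features of any kind did: 0.00898% in conventional CD4 T cells, 0% in the regulatory ones, 0.00927% in CD8 T cells, 0.0185% in B cells and 0% in both dendritic cells and monocytes and macrophages. By edgeR's quasi-likelihood test, 3, 3, 3, 5, 1 and 1 of the genes in that order had an unadjusted p under 0.05. Of all features tested, 531 of 11137, 429 of 7631, 683 of 10784, 593 of 10789, 328 of 3627 and 88 of 2652 had one. DESeq2 called 0 of the genes in each class. The median log2 difference, Cre-positive over Cre-negative, was 0.06 in conventional CD4 T cells (25 of 33 above 0), -0.09 in regulatory T cells (9 of 31), 0.09 in CD8 T cells (26 of 33) and 0.12 in B cells (23 of 30). The same median was 0.11 in dendritic cells (15 of 24) and -0.10 in monocytes and macrophages (6 of 19). The genes share their 6 mice, so these counts of signs carry no test.

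H2-Q4, a nonclassical class I chain, had lower levels in the T cells of the Cre-positive mice but passed in no class. The strain is not given, and whether the mice carry the same class I alleles, which can change how reads are assigned, was not tested. In conventional CD4 T cells its levels were 113, 127 and 113 CPM in Cre-negative and 99.2, 91.2 and 104 in Cre-positive mice (-0.26 ± 0.08, adjusted p 0.83). In regulatory T cells they were 193, 160 and 176 against 129, 117 and 135 (-0.47 ± 0.14, adjusted p 0.68), and in CD8 T cells 124, 122 and 109 against 94.7, 92.2 and 104 (-0.27 ± 0.08, adjusted p 0.56). The groups did not overlap in the 3 T cell classes, nor in the few plasmacytoid dendritic cells, although no difference survived adjustment. In B cells, with 61.9, 65.0 and 54.9 against 45.5, 42.7 and 57.8 CPM, they overlapped (-0.29 ± 0.12, adjusted p 0.87).

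Ifi47 and Igtp had higher levels in Cre-positive conventional CD4 T cells, likewise without passing. Ifi47 was at 110, 115 and 119 CPM against 146, 136 and 128 (0.25 ± 0.08). In CD8 T cells it was at 128, 121 and 134 against 165, 161 and 138 (0.29 ± 0.08). Its groups did not overlap in either class. Igtp was at 48.7, 45.2 and 48.6 against 70.4, 55.5 and 51.0 (0.31 ± 0.09), with Cre-positive 1 well above the other mice. Cre-positive 1 also had the highest summed level of the 15 GTPases in conventional CD4, CD8 and B cells. The lowest adjusted p of any of the 33 genes was 0.83 in conventional CD4 T cells and 0.53 in CD8 T cells.

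With H2-Q4, Iigp1 and Nlrc5 had the smallest p in regulatory T cells. All Cre-positive values lay below all Cre-negative ones there for 6 genes (H2-Q4, H2-Q7, Iigp1, Nlrc5, Psmb10 and Tap2), and above them for Tgtp2. The share of all features that separate in this way was not counted, so the list is a description and not a result about these genes. Iigp1 was at 71.9, 70.4 and 39.4 CPM in Cre-negative and 36.5, 34.0 and 31.6 in Cre-positive mice (-0.85 ± 0.21, adjusted p 0.43), without overlap but with Cre-negative 3 close to the Cre-positive range. Nlrc5 was at 51.9, 58.1 and 51.2 against 35.6, 33.2 and 35.3 CPM (-0.62 ± 0.19), and the groups did not overlap. In CD8 T cells Nlrc5 was at 40.2, 37.1 and 41.4 against 35.3, 33.5 and 33.2 (-0.20 ± 0.09), again without overlap. When features with low counts were not removed before adjustment, Iigp1 in regulatory T cells had an adjusted p of 0.035. Separation without overlap was not limited to regulatory T cells. In conventional CD4 T cells 5 genes lay above and 1 below, and in CD8 T cells 3 above and 2 below. The counts above and below were 3 and 0 in B cells, 5 and 1 in dendritic cells and 0 and 4 in monocytes and macrophages. The share of all features was not counted there either.

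In B cells, which are not intended targets of this Cre, Gbp2, Irf1 and Psme2 had the smallest p. Gbp2 was at 13.8, 15.6 and 11.7 against 21.8, 15.8 and 20.2 CPM (0.53 ± 0.13, adjusted p 0.50), with Cre-positive 2 just above the Cre-negative range. Irf1 was at 82.4, 66.6 and 66.3 against 95.2, 77.1 and 91.8 (0.32 ± 0.09, adjusted p 0.50), and the groups overlapped. Psme2 was at 149, 160 and 156 against 189, 171 and 172 (0.21, adjusted p 0.85), without overlap. With low-count features kept, Gbp2 (adjusted p 0.0071) and Irf1 (adjusted p 0.029) passed in B cells. Without Cre-positive 2, Igtp passed there (0.78, adjusted p 0.035).

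Psmb8, Tap1, B2m and H2-K1 each differed by at most 0.15 on the log2 scale between genotypes in conventional CD4, CD8 and B cells. Differences were wider in small classes. The loading genes, Tap1 among them, had medians of -0.08 in regulatory T cells, 0.38 in dendritic cells and -0.34 in monocytes and macrophages. Their ranges were -0.13 to -0.003, -0.01 to 0.55 and -0.57 to 0.16, and none passed. The test of whether the genotype difference in T cells departs from that in B cells gave 0 genes in each of 3 comparisons. The nearest was Irf1 in regulatory T cells against B cells (-0.54, adjusted p 0.23), and without Cre-positive 2 it passed (-0.68, adjusted p 0.0063), as did Gbp7 (-1.03, adjusted p 0.028). The summed level of 3 erythroid markers was lower in every Cre-positive than in every Cre-negative mouse in 4 classes. It was 11.2 to 35.9 CPM in Cre-negative and 0.930 to 8.29 in Cre-positive regulatory T cells, 9.60 to 32.8 and 1.28 to 6.35 in CD8 T cells, 8.59 to 4441 and 1.20 to 7.49 in B cells, and 9.09 to 55.1 and 0 to 4.83 in monocytes and macrophages. The ranges overlapped in conventional CD4 T cells (7.33 to 1057 and 1.00 to 559) and in dendritic cells (28.4 to 6502 and 2.64 to 954). Of that list, 2 markers were tested for genotype in conventional CD4, CD8 and B cells and 1 in dendritic cells, and none of them passed. In regulatory T cells and in monocytes and macrophages 0 were tested. The 3 plasma cell markers summed to 447 to 493 CPM in Cre-negative and 487 to 1706 in Cre-positive B cells, and the 5 B cell markers to 54.7 to 63.9 and 57.7 to 490 in regulatory T cells. The part of these RNAs in the genotype values was not tested. All genes of the pathway lists (59 of 63 listed were found) were also without a call between genotypes.

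**Figure D4:**
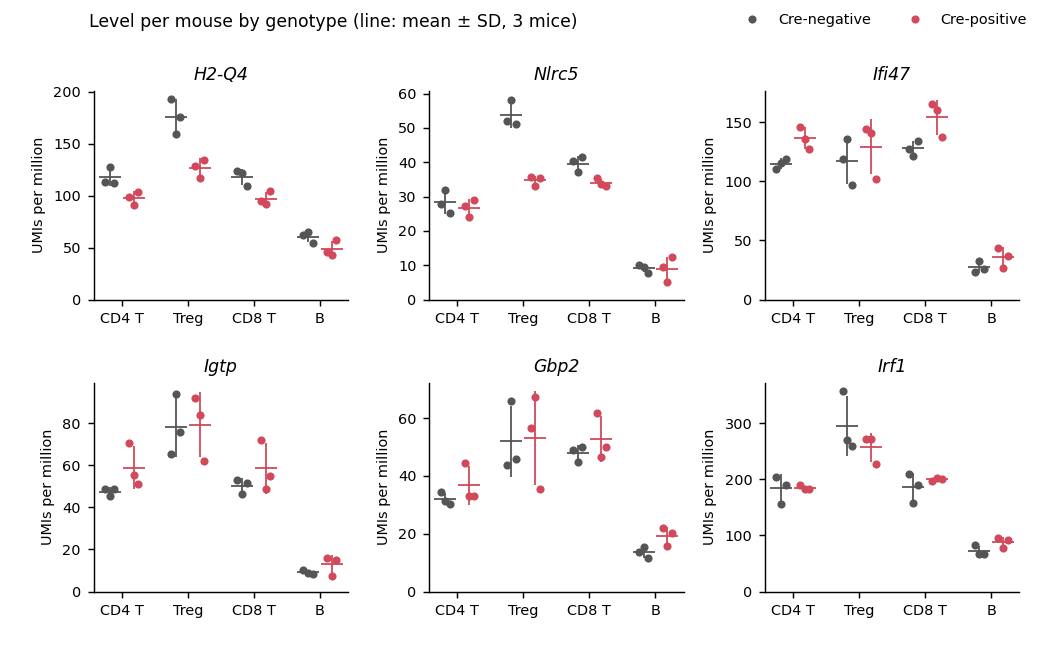
Levels (CPM) of H2-Q4, Nlrc5, Ifi47, Igtp, Gbp2 and Irf1 in each mouse, by genotype, in the 3 T cell classes and in B cells, with the mean ± SD of 3 mice. H2-Q4 is lower in all 3 Cre-positive mice in each T cell class, and no difference shown passed the test over all features.

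Over the 24 sums of the 4 main lymphocyte classes, features outside the 33 that were most like the mean standardised profile of the 15 GTPases included Socs1, an inhibitor of JAK signalling (Pearson r 0.971), Airn (0.971), Zbp1 (0.969) and Ifi27 (0.969). The sums share libraries and the step between T and B cells, so r is given as a description. Of the 33 genes, Gbp4 followed that profile most closely (0.978), although as a GTPase it is part of it. Gbp3 (0.156), Gbp5 (0.385) and H2-T23 (-0.717) followed it least. In the comparison of B cells with conventional CD4 T cells, Socs1 gave -2.05 ± 0.06. Of 55 listed pathway genes tested there, 16 were higher and 25 lower by adjusted p, where 37% and 36.6% of all features were, and 7 of 8 type I interferon targets were lower.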

How the data were processed

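Per the submitters' processing notes, reads were processed with Cell Ranger 6.1.2 against mm10. The authors deposited matrices of unnormalised UMI counts (genes by barcodes) for each of the 6 mice, and nothing else was used. The strand setting and further parameters are not given in the sources used here. The floxed gene and a few other planned results are not reported here.

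Cells with at least 500 UMIs, at least 300 genes and at most 10% mitochondrial UMIs were kept (scanpy 1.11.5), and the cells of highest Scrublet score were left out, 0.8% for every 1000 barcodes, 480 to 914 per library. Classes were gated on UMIs: T cells by Cd3d, Cd3e and Cd3g with Cd4, Cd8a, Cd8b1 and Foxp3, B cells by B-lineage markers such as Cd79a, Cd79b and Ms4a1, dendritic cells by Fscn1, Ccl22, Zbtb46, Xcr1, Clec9a and Cd209a, and monocytes and macrophages by Csf1r, C1qa, C1qb, C1qc, Ms4a6c and Lyz2. A cell in more than 1 gate was left out. UMIs summed per mouse and class were tested with edgeR 4.0.16 (quasi-likelihood, robust, TMM, filterByExpr, Benjamini-Hochberg over all features, R 4.3.3), unpaired between genotypes and with the mouse as a block between classes or gates. Classes with fewer than 20 cells in any mouse were not tested. Calls between classes and gates also needed a fold of at least 2. Levels are plain CPM rather than the TMM-scaled CPM first planned. Between genotypes a p-value rests on the spread between these 6 mice. Between classes or gates it rests on the spread of the within-mouse difference over them.

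Levels were given for Irf1, Igtp, Gbp2, Psmb8, Tap1, Nlrc5, B2m and H2-K1, in every mouse or as lowest, median and highest over the mice. Values in every mouse were given for the 3 genes of smallest genotype p in each of 4 main classes. Other genes past a threshold were named after their values were seen. The 33 genes, the pathway lists and the gates were chosen with earlier results of these data known. Motifs were searched in RefSeq windows of 300 bases, and promoter sequences are RefSeq's. Alternatives were DESeq2 1.42.0, other size factors, no low-count filter, other cell limits, doublets kept, library sizes without the 33 genes, each mouse left out and a replicate block.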

Additional observations from a re-analysis of the deposited data

How the results depend on the processing

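None of the values of single genes counted here changed direction. Without TMM scaling, H2-D1, H2-Q4 and Tap2 in CD8 T cells and Irgm1 and Irgm2 in dendritic cells fell below 0, as given above. With no filter on low counts, the genes called between genotypes numbered 1 in regulatory T cells (Iigp1) and 2 in B cells (Gbp2 and Irf1), and 2 were lower in dendritic cells (Ifi47 and Gbp7). With doublets kept, 2 were again lower in dendritic cells. With no minimum fold, B cells had 2 higher and 30 lower than conventional CD4 T cells, CD8 T cells 30 higher and 1 lower, regulatory T cells 14 higher and 6 lower, dendritic cells 2 lower (33.5% of all features), monocytes and macrophages 17 higher (20.9%) and gated CD8 T cells 10 higher (0.685%). At most 5% mitochondrial UMIs left 2 genes for the B cell interferon gate. Leaving out each mouse gave 0 to 1 gene called between genotypes in B cells, 0 to 1 higher in B cells, 1 to 2 lower in dendritic cells, 0 to 1 lower in monocytes and macrophages, 4 to 7 and 2 to 7 higher in the interferon gates of CD4 T cells and B cells, and 0 to 2 called for genotype in regulatory T cells against B cells. Single genes were followed under the alternatives if they had passed between classes or gates, or were among the 3 of smallest genotype p in each of the 4 main lymphocyte classes. Of their 2220 values 2128 kept direction and side of the threshold, 89 fell back over it and 3, all between genotypes, passed it when low counts were kept, while genes outside this choice that came to pass are not counted. With a replicate block, 0 genes were called between genotypes in any of the 6 classes, and the median differences were 0.05, -0.06, 0.09 and 0.12 in conventional CD4, regulatory, CD8 and B cells. Mice of the same number in both groups share only that number, with correlations of their deviations from -0.08 to 0.19. The interferon gate in B cells, as planned, and the comparisons of natural killer and plasmacytoid dendritic cells were not run for lack of cells. Depth limits dendritic cells, monocytes and the gated sums most.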
